A study of Homo sapiens with 5 samples.

Results

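The expression of 10 genes of the YAP and TGF-beta pathways was followed by timepoint in KYSE30-Luc-GFP cells, from single-cell RNA counts. The genes were taken from a written list, CTGF, CYR61, ANKRD1, AMOTL2, TGFBI, TGFB1, TGFB2, INHBA, TGFBR2 and SMAD7, and all 10 of them were found among the 33538 genes counted in every library. KYSE30 is an established human esophageal squamous cell carcinoma line, labelled here with luciferase and green fluorescent protein (GFP) by lentivirus. Of the 5 libraries, 1 holds cultured parental cells (the parental library), and the other 4 hold GFP-positive cells sorted from lungs after tail vein injection into NOD SCID mice (NOD.CB17-Prkdc scid/J), which lack functional B and T cells and were a few weeks old. The early timepoints were 6 h and 48 h and the late ones 2 months and 4 months after injection, and the lungs were digested enzymatically and depleted of mouse cells before sorting. The 4 months library came from 1 mouse, and each of the other lung libraries from the pooled cells of several mice. Each timepoint was therefore 1 sample, no test between timepoints was possible, and no p-value is given.

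YAP is a transcriptional co-activator that enters the nucleus when the Hippo kinases are inactive, for instance in spread or mechanically loaded cells, and switches genes on together with the TEAD DNA-binding proteins. TGF-beta and activin are secreted ligands that bind paired type I and type II receptor kinases, which phosphorylate SMAD2 and SMAD3, and the SMAD complex then acts on genes in the nucleus. In carcinomas both pathways are known for their part in adhesion, matrix production and epithelial-mesenchymal transition, and several of their targets also respond within minutes to serum, stretch or tissue handling. CTGF and CYR61 (named CCN2 and CCN1 in newer annotation) encode secreted matricellular proteins, ANKRD1 a nuclear and sarcomeric ankyrin repeat protein, and AMOTL2 a junctional scaffold that binds YAP and restrains it.

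The letters GGAATG, the core that TEAD proteins recognise, were looked for on both strands in the 250 bases before the RefSeq start of each gene (GRCh38.p14). The promoter table matched 9 of the 10 genes with 13 starts, and CYR61, at chr1:85580761-85584589 on the plus strand in GENCODE 44, had no entry. Of all 35116 promoters, 11.9% hold GGAATG or its reverse complement CATTCC within those 250 bases. The 3 genes below all hold the letters, and capitals mark the letters in each sequence. CTGF and TGFB2 were higher at 6 h and 48 h than in the other libraries, and ANKRD1 did not share this order.
CTGF, chr6:131951373-131951622, minus strand: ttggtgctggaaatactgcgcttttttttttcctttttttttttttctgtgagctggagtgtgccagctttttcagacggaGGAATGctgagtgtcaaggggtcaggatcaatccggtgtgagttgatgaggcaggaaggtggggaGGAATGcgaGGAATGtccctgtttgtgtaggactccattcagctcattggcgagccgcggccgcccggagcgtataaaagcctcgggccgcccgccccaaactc
ANKRD1, chr10:90921088-90921337, minus strand: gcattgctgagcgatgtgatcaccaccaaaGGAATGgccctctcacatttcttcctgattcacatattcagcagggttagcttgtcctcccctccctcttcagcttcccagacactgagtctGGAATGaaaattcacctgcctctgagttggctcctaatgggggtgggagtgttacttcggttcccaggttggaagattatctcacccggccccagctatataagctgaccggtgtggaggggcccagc
TGFB2, chr1:218345086-218345335, plus strand: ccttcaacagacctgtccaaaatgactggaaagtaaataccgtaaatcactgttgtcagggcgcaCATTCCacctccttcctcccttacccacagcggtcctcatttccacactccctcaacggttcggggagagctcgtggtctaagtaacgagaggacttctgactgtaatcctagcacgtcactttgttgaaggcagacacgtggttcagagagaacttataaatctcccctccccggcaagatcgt

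CTGF holds the letters 3 times, at 169, 104 and 95 bases before its start, the latter 2 lying close together. ANKRD1 holds them 2 times, at 220 and 128 bases before its start, and TGFB2 1 time, at 185 bases. AMOTL2 has 2 listed starts, and the letters lie before 1 of them, at 69 bases. GGAATG and CATTCC were not among the letters of this window for TGFBI, TGFB1, TGFBR2, INHBA and SMAD7. The core GTCTG of SMAD proteins, with its reverse complement CAGAC, was present before CTGF, ANKRD1, AMOTL2, TGFB2 and SMAD7, but 38% of all promoters hold it. The AP-1 motif TGANTCA, found in 6.57% of all promoters, was present before ANKRD1 only, at 195 bases. A match of letters is a description of the sequence and shows no binding.

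Each value rests on unique molecular identifiers (UMIs), deposited by the authors as a raw count for each gene and cell barcode, where a UMI stands for a captured RNA molecule read at its 3′ end. After the quality filter of the study (200 to 8000 genes, at least 1000 UMIs, at most 15% mitochondrial UMIs) 19986 of 26712 barcodes remained, from 1149 cells at 48 h to 9059 parental cells, with a median of 12979 UMIs a cell at 6 h and of 21864 to 39076 in the others. A level is the UMIs of a gene summed over the cells of a library and scaled to 1000000 UMIs of all genes (CPM). Its 95% interval is exact Poisson and covers counting error only, and a gene was called higher or lower where the CPM differed at least 2-fold, with 1 CPM added to both, and reached at least 5 CPM on either side. The 11 genes of a list of epithelial markers each had at least 1 UMI in all libraries, at 1649 to 22984 CPM in sum. In the parental library most of this sum was KRT18 (1048 CPM) and KRT8 (342 CPM). KRT5, KRT14 and KRT17 were each under 1 CPM there, and KRT5 reached 556 CPM at 2 months and 1749 CPM at 4 months. PTPRC, the general leukocyte marker, was at 0 to 0.0428 CPM, but host cells would be of mouse and the genes counted are human. Pairs of libraries shared 1 to 62 cell barcodes.

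The parental culture and the lung libraries held different mixtures of cells. The study selects cells by its 7 metastasis-initiating signature genes (MISs), and a cell passes its MISs 1+1 filter with at least 1 UMI from each of the 2 sets into which the study divides them. None of the 10 genes is among these 7. By this filter 14.5% of the parental cells were MIS-positive, against 98.2% (6 h), 95.7% (48 h), 81.8% (2 months) and 99.2% (4 months). Comparisons with the parental culture are therefore given for all cells and for MIS-positive cells. In the parental culture the 11 epithelial markers summed to 8839 CPM in MIS-positive and 337.5 CPM in MIS-negative cells.

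**Figure D1:**
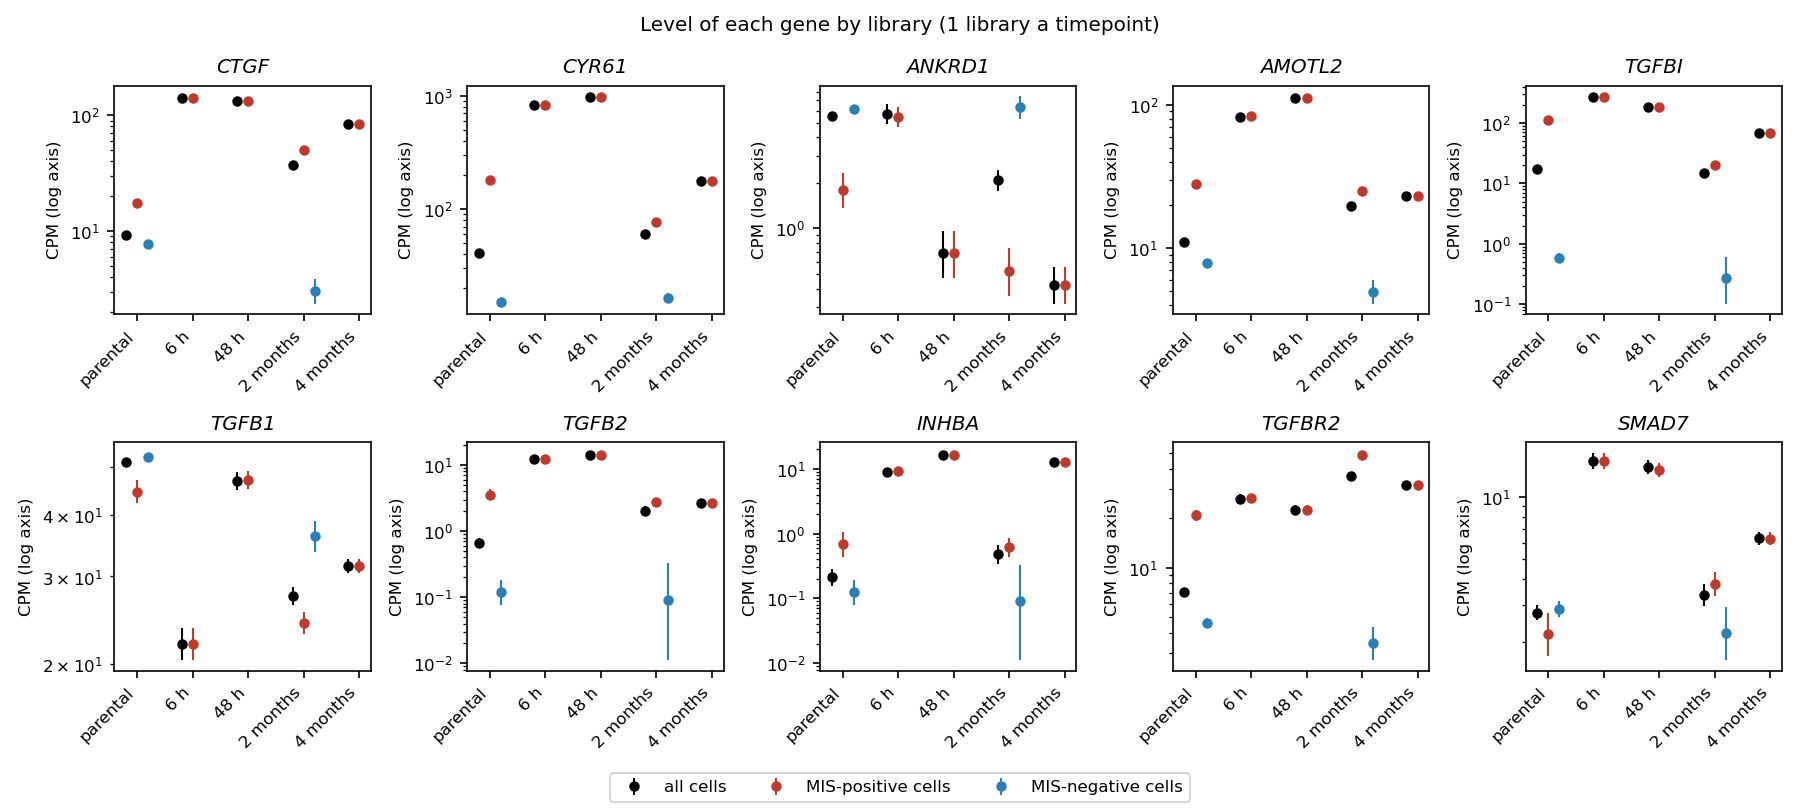
Level of each gene in CPM (log axis) in the 5 libraries, over all cells (black), MIS-positive cells (red) and MIS-negative cells (blue, shown for the parental and 2 months libraries, which had many of them); bars are 95% counting intervals. CYR61, CTGF and AMOTL2 are highest at 6 h or 48 h and lower at 2 months, whereas ANKRD1 is highest in MIS-negative cells at the parental stage and at 2 months.

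Within the parental culture the MIS-positive cells already carried more of most of these RNAs. TGFBI, a secreted matrix protein induced by TGF-beta, had 110 CPM in the 1310 MIS-positive cells and 0.589 CPM in the 7749 MIS-negative cells, a 188-fold difference (95% interval 154 to 231). CYR61 had 180 and 15.04 CPM, an 11.9-fold difference (11.4 to 12.5). AMOTL2 was 3.60-fold, TGFBR2 4.55-fold and CTGF 2.24-fold higher. These 5 genes were thus high in the MIS-positive minority. ANKRD1 went the other way, with 1.80 CPM in MIS-positive and 6.17 CPM in MIS-negative cells, and TGFB1, which encodes the main TGF-beta ligand, was similar in both at 44.5 and 52.2 CPM. TGFB2, INHBA and SMAD7 stayed under 5 CPM in both classes and were not called. They had 3.58, 0.696 and 2.18 CPM in MIS-positive and 0.121, 0.127 and 2.87 CPM in MIS-negative cells. With a minimum of 1 CPM TGFB2 was called higher in MIS-positive cells.

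Of the 10 genes, 7 reached the minimum level and 6 of these were called, 5 higher and 1 lower in MIS-positive cells, while 31.7% of all genes tested were called in either direction, 12.9% higher and 18.8% lower. The median log2 ratio was 1.73 over these 7 genes and -0.26 over all genes tested. The same split was visible by cells. TGFBI had a UMI in 78.9% of MIS-positive and 1.20% of MIS-negative parental cells at median depths of 24831 and 22772 UMIs, and with every cell thinned to 3000 UMIs the shares were 26.6% and 0.224%. CYR61 had a UMI in 73.8% and 24.7% of them, or 29.3% and 4.36% after thinning.

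Among the YAP targets, CYR61 had 40.4 (parental), 828 (6 h), 980 (48 h), 60.1 (2 months) and 177 CPM (4 months). The levels at 6 h and 48 h were far above the other 3 libraries. CTGF had 9.21, 141, 132, 37.2 and 84.8 CPM in the same order, so that the 4 months library came closer to the early lung libraries than for CYR61. AMOTL2 had 11.0, 82.9, 111, 19.5 and 23.0 CPM, with the late lung libraries near each other. ANKRD1 had 5.50, 5.72, 0.684, 2.08 and 0.422 CPM and did not share this order.

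Among the ligands, TGFB1 had 51.0 (parental), 21.9 (6 h), 46.8 (48 h), 27.4 (2 months) and 31.5 CPM (4 months), a range of 2.33-fold between the highest and the lowest library. TGFB2, a second TGF-beta ligand, had 0.654, 12.2, 14.3, 2.03 and 2.69 CPM. INHBA, which encodes the subunit of activin A, had 0.215, 9.04, 16.5, 0.482 and 12.7 CPM. TGFB1 was thus the steadiest ligand RNA and INHBA the most variable.

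TGFBR2, the type II TGF-beta receptor, had 7.07 (parental), 26.4 (6 h), 22.6 (48 h), 36.4 (2 months) and 31.8 CPM (4 months), and was the only 1 of the 10 genes with its highest level at 2 months. SMAD7, the inhibitory SMAD that TGF-beta induces as negative feedback, had 2.76, 14.9, 13.9, 3.38 and 6.31 CPM. The TGF-beta target TGFBI had 17.5, 269, 181, 14.9 and 69.1 CPM, high at 6 h and 48 h. Over all cells it was about as low at 2 months as in the parental culture. In MIS-positive cells alone it was lower at 2 months, at 20.2 CPM against 110 CPM in the parental culture. Summed over the 10 genes and all cells the levels were 145, 1410, 1519, 204 and 439 CPM.

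At 6 h 9 of the 10 genes were called against all parental cells, 8 higher and TGFB1 lower, where 45.1% of all genes tested were called, 17.2% higher and 27.8% lower. CYR61 was 20.5-fold higher (19.98 to 20.99), CTGF 15.3-fold (14.5 to 16.2) and TGFBI 15.3-fold (14.7 to 15.9). Much of the size of these folds went with the mixture of cells, since in MIS-positive cells alone they were 4.61-fold for CYR61 (4.48 to 4.74), 8.17-fold for CTGF (7.47 to 8.94) and 2.44-fold for TGFBI (2.35 to 2.54). TGFBR2 was 3.73-fold higher over all cells and 1.27-fold higher in MIS-positive cells, which is below the call.

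In MIS-positive cells 8 of the 10 genes were called at 6 h, all of them higher, while 10.6% of all genes tested were called higher and 23.0% in either direction. The median log2 ratio was 1.53 over the 10 genes and -0.05 over all genes tested. The largest folds were those of INHBA, from 0.696 to 9.08 CPM (13.0-fold, 8.45 to 21.1), of CTGF and of SMAD7, from 2.18 to 14.9 CPM (6.84-fold, 5.31 to 8.94). TGFB2 was 3.42-fold and AMOTL2 2.95-fold higher. ANKRD1 was 3.03-fold higher, but 46 of its 186 UMIs at 6 h came from 1 cell, and without the cell with the most UMIs in each library its level was 4.04 CPM against 1.61 CPM and it was not called. TGFB1 had 21.9 against 44.5 CPM, a log2 ratio of -0.99 just short of the call.

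**Figure D2:**
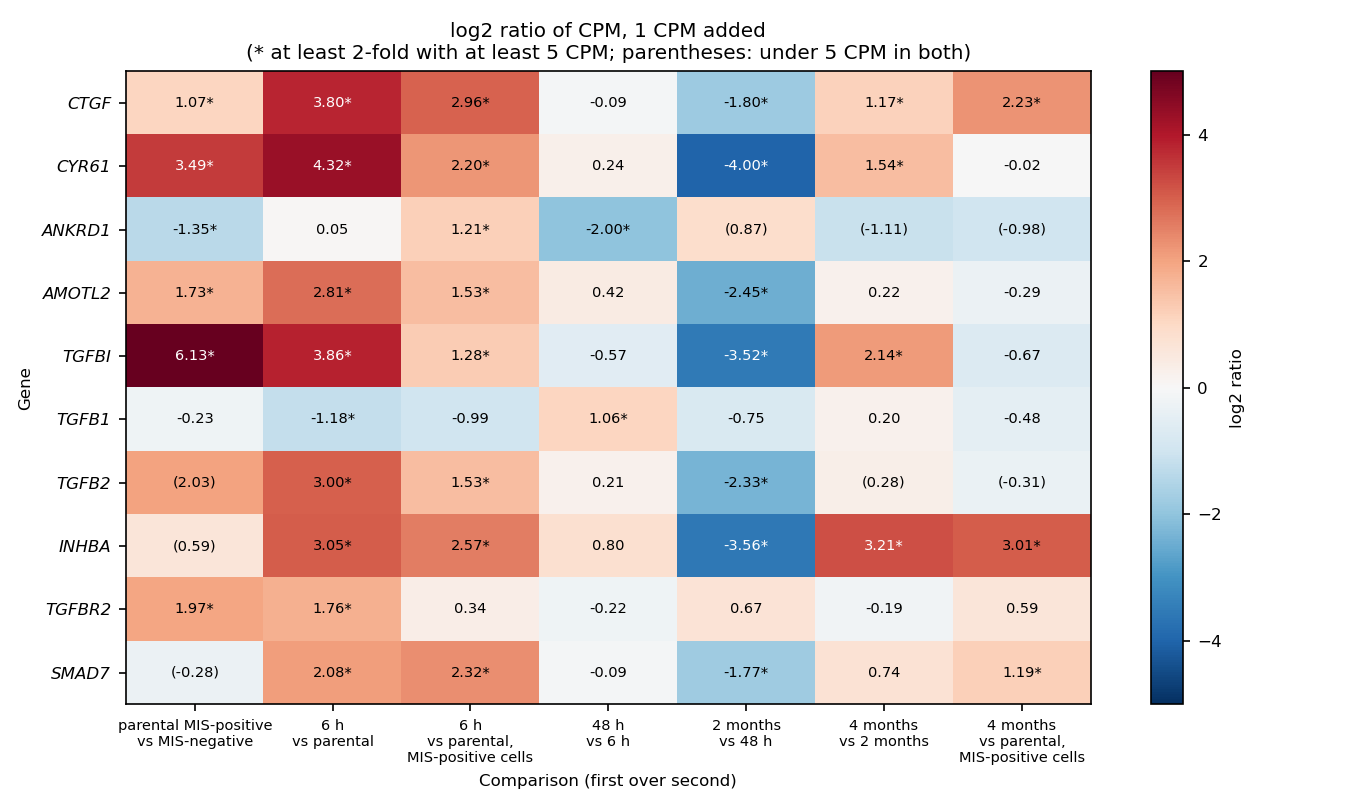
The log2 ratio of each gene (rows) in each comparison (columns), first library over second with 1 CPM added, coloured from blue (lower) to red (higher); an asterisk marks a call and parentheses mark genes under 5 CPM on both sides. The 2 months over 48 h column holds 7 lower calls, from -1.77 for SMAD7 to -4.00 for CYR61.

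The 6 h library was not uniform. As a check on tissue handling, 15 immediate early and dissociation response genes (FOS, JUN, EGR1, ATF3, HSPA1A and others) were summed, and their level was 1796 (parental), 5019 (6 h), 8456 (48 h), 3497 (2 months) and 5921 CPM (4 months). It was lowest in the parental and 2 months libraries and highest at 48 h, as was the sum of the 10 genes. Between 6 h and 4 months the order differed. The 15 genes were higher at 4 months, and the 10 genes were higher at 6 h (1410 against 439 CPM). In the parental library HSPA1A alone had 971 CPM, with 136 CPM in MIS-positive and 1123 CPM in MIS-negative cells. CYR61 is itself known as an immediate early gene. The MIS-positive cells of each library were split into 3 groups of equal size, low, middle and high, by their share of UMIs of these 15 genes. At 6 h the low group held 378 CPM of them, below the low group of the parental cells with 547 CPM, and the high group held 9689 CPM. The cells of the low group were also shallow, at 7039 UMIs in the median cell, while the middle group had 24011 and the high group 16728.

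Across the 6 h groups, CYR61 went from 92.1 CPM in the low to 697 in the middle and 1355 CPM in the high group. CTGF went from 27.8 to 153 and 182 CPM, and AMOTL2 from 10.3 to 85.9 and 115 CPM. SMAD7 had 0.354, 14.6 and 22.5 CPM, from 2, 221 and 261 UMIs. All 4 genes were thus low in the same group of the 6 h cells. INHBA had 0.177, 5.55 and 18.0 CPM, TGFB2 2.83, 10.4 and 19.1 CPM, and TGFBR2 7.61, 28.2 and 33.5 CPM. TGFBI differed, with 278, 282 and 249 CPM, and had a UMI in 459 of the 641 cells of the low group.

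Compared with the low group of the parental MIS-positive cells, the low group at 6 h had more TGFBI (278 against 94.1 CPM) and more CTGF (27.8 against 14.8 CPM, under 2-fold with 1 CPM added). CYR61 was lower there at 92.1 against 134 CPM, short of a call. The 3 genes called lower were AMOTL2 at 10.3 against 28.9 CPM, TGFBR2 at 7.61 against 21.4 CPM and TGFB1 at 16.8 against 42.6 CPM. Of the 8 genes called higher at 6 h in MIS-positive cells, TGFBI was the only 1 called higher in the low groups. The share of all genes called in the low groups was not computed. At 6 h 37 of 1922 cells lay within 10% of the limit between the low and the middle group. The part of tissue handling, depth or cell state in this split was not tested.

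**Figure D3:**
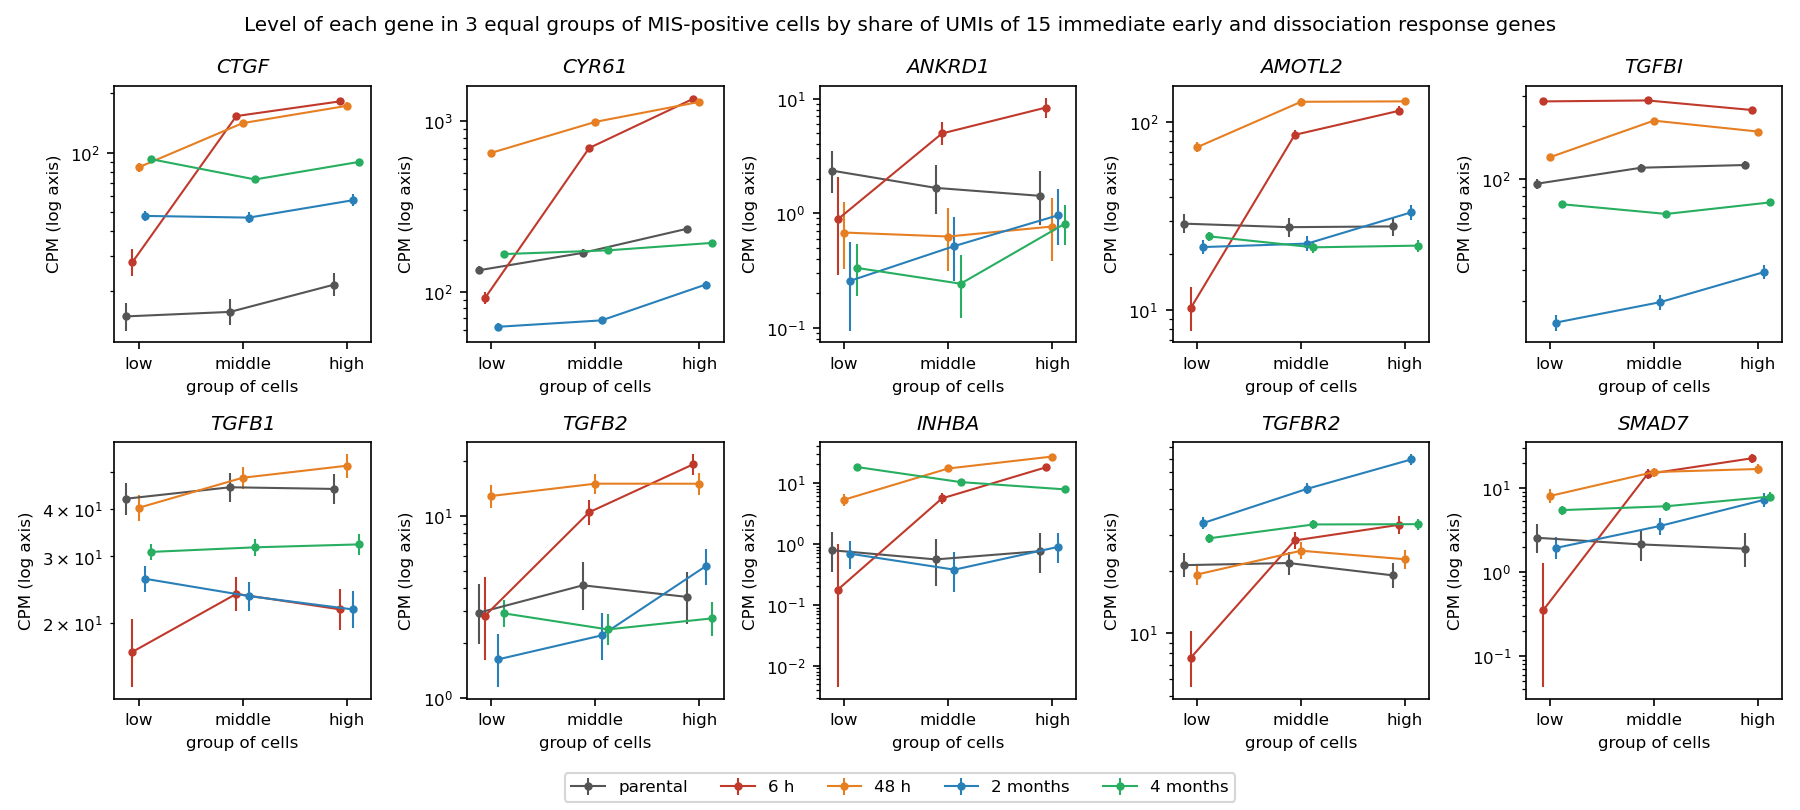
Level of each gene (CPM, log axis, 95% counting intervals) in the low, middle and high group of the MIS-positive cells of each library, formed by the share of UMIs of 15 immediate early and dissociation response genes. The red 6 h line climbs steeply from the low to the middle group for CTGF, CYR61, AMOTL2, INHBA and SMAD7 and stays level for TGFBI.

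For CYR61 the low and the high group lay closer together in the other lung libraries. At 48 h the low group still held 3619 CPM of the 15 genes, and CYR61 had 653, 992 and 1300 CPM and CTGF 84.1, 141 and 172 CPM from the low to the high group. INHBA was the steepest there with 5.29, 17.2 and 27 CPM. At 2 months CYR61 had 62.4, 68.0 and 110 CPM, and at 4 months 167, 175 and 194 CPM. INHBA at 4 months went the other way, with 18.2, 10.3 and 7.81 CPM.

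Between 6 h and 48 h most levels were close. Of the 10 genes 2 were called, TGFB1 higher (2.14-fold, 1.96 to 2.33) and ANKRD1 lower (0.120-fold, 0.0795 to 0.175), where 4.65% of all genes tested were called, 3.24% higher and 1.42% lower. ANKRD1 rested on 186 UMIs in 74 cells at 6 h and was no longer called without the cell with the most UMIs, being then at 4.30 CPM and under the minimum, and TGFB1 lost its call when the libraries were scaled by the median ratio of all genes (log2 ratio 0.92). TGFBI was 0.673-fold and INHBA 1.83-fold, both short of a call. Within the low groups, by contrast, 8 genes were called higher at 48 h and TGFBI lower. That count follows the low 6 h levels given above. The share of all genes called was not computed for the low groups, so the count cannot be set beside other genes.

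The share of cells with a UMI was wider at 48 h than at 6 h for CYR61. At the full depth 64.5% of the 6 h cells and 89.9% of the 48 h cells held a UMI of CYR61, and after thinning to 3000 UMIs the shares were 54.0% and 70.3%, against 8.41% in the parental culture, 12.2% at 2 months and 28.0% at 4 months. For TGFBI the thinned shares were 44.6% at 6 h and 30.4% at 48 h. INHBA was found in few cells, with 294 UMIs in 71 of 1957 cells at 6 h, 47 of them in 1 cell. At 48 h 13.1% of the cells held a UMI of INHBA, and the 10% of cells with the most held 95.3% of its UMIs.

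At 2 months 7 of the 10 genes were called lower than at 48 h and none higher, while 13.0% of all genes tested were called lower and 25.2% in either direction. The median log2 ratio was -2.33 over the 9 genes above the minimum and -0.05 over all genes tested. CYR61 was 16.3-fold lower (15.8 to 16.8), TGFBI 12.2-fold lower (11.4 to 12.9) and INHBA 34.3-fold lower (24.8 to 48.6). The weakest of the 7 were CTGF, 3.55-fold lower, and SMAD7, 4.12-fold lower. TGFBR2 was 1.61-fold higher and TGFB1 1.71-fold lower, both under the call.

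The 2 months library was the only lung library with many MIS-negative cells, 606 of 3322. They were near the parental MIS-negative cells for ANKRD1 (6.30 against 6.17 CPM) and TGFBR2 (3.45 against 4.57 CPM). TGFBI was under 1 CPM in both (0.276 against 0.589 CPM). CTGF was lower at 2 months, at 3.03 against 7.73 CPM. The MIS-positive cells at 2 months had 20.2 CPM of TGFBI, 49.8 of CTGF, 48.5 of TGFBR2 and 0.524 CPM of ANKRD1. With MIS-positive cells alone the 7 lower calls against 48 h were made as well, and TGFBR2 was called higher (log2 ratio 1.07). Of the 168 ANKRD1 UMIs at 2 months, 137 lay in the MIS-negative cells. Division genes (MKI67, TOP2A, CCNB1, CDK1, UBE2C) summed to 714 (parental), 415 (6 h), 215 (48 h), 511 (2 months) and 245 CPM (4 months). They were highest in the parental and 2 months libraries, where the sum of the 10 genes was lowest, and their part in the result was not tested.

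At 4 months 4 genes were higher than at 2 months and none lower, of 8 above the minimum, while 3.03% of all genes tested were called higher, 9.38% lower and 12.4% in either direction. INHBA was 26.3-fold higher (19.2 to 37.2), TGFBI 4.65-fold (4.38 to 4.94), CYR61 2.94-fold (2.85 to 3.03) and CTGF 2.28-fold (2.19 to 2.37). Between MIS-positive cells CTGF was at 84.8 against 49.8 CPM and was not called, while the other 3 were. Of the remaining genes AMOTL2 was 1.18-fold, TGFB1 1.15-fold and TGFBR2 0.874-fold. SMAD7 was 1.87-fold higher (1.63 to 2.15), short of a call. ANKRD1 went from 2.08 to 0.422 CPM and TGFB2 from 2.03 to 2.69 CPM, under the minimum at both timepoints.

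The INHBA of the 4 months library lay in a subset of cells. It had 1593 UMIs, found in 466 of 4499 cells (10.4%), and the 10% of cells with the most held 99.0% of them. As only 10.4% of the cells held any, the 99.0% follows largely from detection. Thinned to 3000 UMIs, 2.99% of the cells held a UMI, against 0.247% at 2 months and 4.47% at 48 h. CTGF was more widely spread, in 38.6% of the 4 months cells, with 71.1% of its UMIs in the 10% of cells with the most.

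Against the parental MIS-positive cells, the 4 months MIS-positive cells had 3 of 8 genes called, all higher, where 8.18% of all genes tested were called higher and 22.7% in either direction. INHBA had 12.7 against 0.696 CPM (18.2-fold, 11.99 to 29.2), CTGF 84.8 against 17.3 CPM (4.90-fold, 4.49 to 5.35) and SMAD7 6.28 against 2.18 CPM (2.88-fold, 2.25 to 3.74). CYR61 was at 177 against 180 CPM, a ratio of 0.983 (0.955 to 1.01), AMOTL2 at 23.0 against 28.2 CPM and TGFBI at 69.05 against 110 CPM. CTGF and CYR61, both YAP targets of the same family, thus stood apart at 4 months.

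CTGF and CYR61 also differed by cell division. MIS-positive cells with UMIs of both MKI67 and TOP2A were set beside those with none of the 5 division genes. CTGF was lower in the dividing cells of each of the 5 libraries, at 0.371 (parental), 0.644 (6 h), 0.578 (48 h), 0.508 (2 months) and 0.549 (4 months) of the level of the other cells. The parental ratio (0.277 to 0.504) rests on 82 other cells with 54 CTGF UMIs, beside 810 dividing cells. CYR61 was lower in dividing parental cells (0.743) and higher in dividing cells at 2 months (1.81) and 4 months (1.61). TGFB1 lay between 0.814 and 1.10 in the 5 libraries. INHBA was at 0.353 at 48 h and 2.20 at 4 months. The dividing cells were deeper, for example a median of 44244 against 24220 UMIs at 4 months, and the part of depth was not tested.

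**Figure D4:**
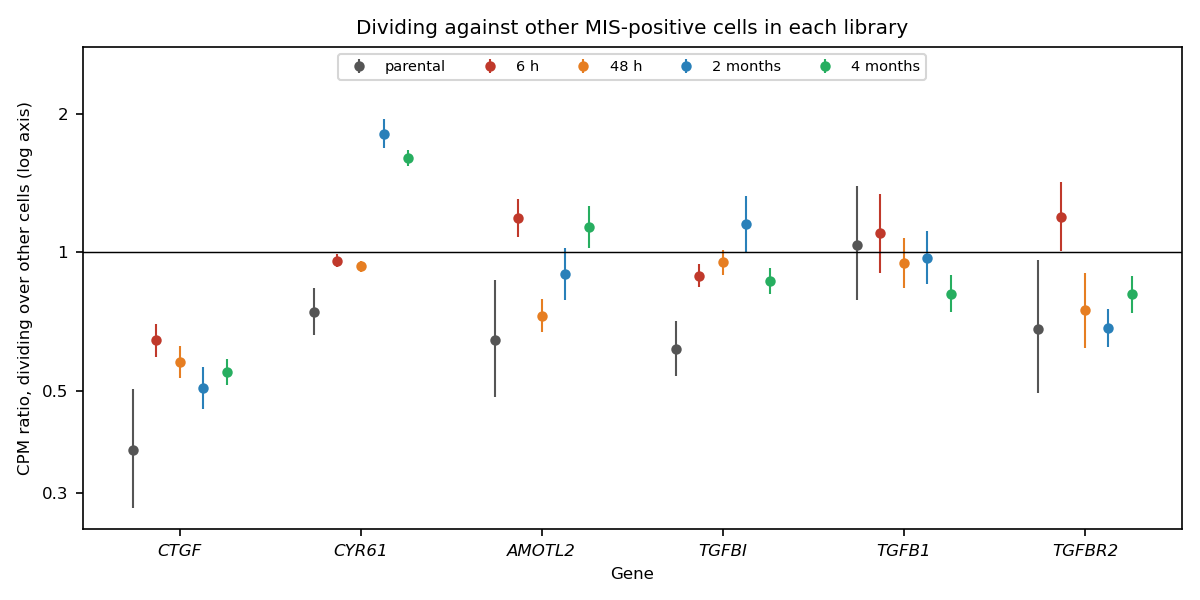
CPM in dividing over other MIS-positive cells of each library (log axis) for 6 genes, with 95% counting intervals; the line marks equal levels. CTGF lies under the line in all 5 libraries, and CYR61 lies above it at 2 months and 4 months only.

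Across single cells CYR61 and CTGF went together most at 6 h and 48 h. As a description over the MIS-positive cells of each library, with counts scaled to the UMIs of the cell and on a log scale, CYR61 and CTGF had Pearson's r of 0.26 in 1310 parental cells, 0.53 in 1922 cells at 6 h, 0.48 in 1099 cells at 48 h, 0.11 in 2716 cells at 2 months and 0.35 in 4465 cells at 4 months. CYR61 and AMOTL2 had r of 0.51 at 6 h and 0.28 at 48 h. The cells of a library differed in depth, and at 6 h all 3 genes were low in the shallow low group given above. The part of depth in r was not tested. TGFBI was near 0 with CYR61 at 6 h (r = -0.03) and at 0.26 at 4 months. TGFB1 had r under 0.10 with CYR61 in all 5 libraries.

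The genes with the highest r to each member differed by timepoint. At 6 h those of CYR61 were KLF6 (0.65), GADD45B (0.65) and JUN (0.65), all known stress and immediate early genes, whereas in the parental cells F3, the tissue factor gene and another YAP target, led with 0.51. At 48 h TGFBI went with SPOCK1 (0.48) and the collagen gene COL4A2 (0.42). At 4 months it went with the TGF-beta target PMEPA1 (0.38), as did CTGF (0.35).

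Over the 5 libraries, the genes most alike in profile were searched among 11391 genes by the root mean square distance of centred log2 levels. For CYR61 the nearest was NEDD9, a TGF-beta target, with 1.44, 52.6, 50.2, 3.29 and 7.06 CPM (distance 0.22 on the log2 scale), followed by the integrin gene ITGAV (0.26). For TGFBI it was the transcription factor gene ETS1 (0.32), and COL17A1, CAVIN3 and CAV1 were among the 5 nearest. For INHBA it was SNAI2, the gene of the transcription factor Slug, with 3.04, 59.9, 64.8, 7.55 and 62.5 CPM (0.34), followed by the adhesion gene L1CAM (0.41). With 5 libraries such likeness is a description.

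Other genes of the pathways were read from written lists. Of 15 other TGF-beta targets, 14 reached the minimum and all 14 were higher at 6 h than in the parental culture, 12 in MIS-positive cells. Of all genes tested 17.2% and 10.6% were called higher in these comparisons. All 14 above the minimum were lower at 2 months than at 48 h, where 13.0% of all genes tested were called lower. ITGB6, a subunit of the integrin that activates latent TGF-beta, had 5.69, 162, 198, 7.06 and 16.4 CPM over all cells, but already 36.4 CPM in parental MIS-positive cells. At 4 months 10 of 13 were higher than at 2 months, beside 3.03% of all genes tested. JUNB among them is also an immediate early gene.

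Of 17 other YAP targets, 15 reached the minimum at 6 h against the parental culture, with 10 higher and 1 lower, beside 17.2% and 27.8% of all genes tested. In MIS-positive cells 6 of 14 were higher and none lower, beside 10.6% and 12.4% of all genes tested. AXL, a receptor tyrosine kinase, had 10.2, 70.4, 96.4, 2.98 and 13.98 CPM over all cells, but already 65.2 CPM in parental MIS-positive cells. At 2 months 8 of 14 were lower than at 48 h, beside 13.0% of all genes tested. Between MIS-positive cells of the 4 months and parental libraries, 2 of 14 were higher and 5 lower at 4 months. Of all genes tested 8.18% were called higher and 14.5% lower there. NUAK2, a kinase, had 1.09, 21.8, 36.0, 10.3 and 12.4 CPM. Most of these genes, like CTGF and CYR61, had their highest level at 6 h or 48 h.

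Of 22 Hippo pathway and TEAD genes, 3 were higher and 3 lower in MIS-positive cells at 6 h against the parental culture, shares near those of all genes tested (10.6% higher and 12.4% lower). YAP1 had 25.3 CPM in parental MIS-positive cells and 16.2, 24.4, 22.4, 18.5 and 19.7 CPM over the 5 libraries. AMOT, a YAP-binding scaffold related to AMOTL2, had 74.4, 0.0922, 0.0855, 22.2 and 0.909 CPM, with 86.3 CPM in MIS-negative and 9.62 CPM in MIS-positive parental cells. ANKRD1 was likewise higher in MIS-negative cells, at the parental stage and at 2 months. Within MIS-positive cells AMOT was also lower in the lung, at 0.0617 CPM at 6 h and 0.909 CPM at 4 months. Of 10 SMAD signalling genes 9 reached the minimum in MIS-positive cells at 6 h, with 2 higher and none lower. SMAD6, the second inhibitory SMAD, had 12.7, 0.461, 0.620, 2.29 and 0.988 CPM, and was highest in the parental culture, where SMAD7 was lowest. Within that culture SMAD6 had 14.1 CPM in MIS-negative and 4.97 CPM in MIS-positive cells. FST, the activin-binding inhibitor follistatin, had 2.51 (parental), 118 (6 h), 15.7 (48 h), 13.4 (2 months) and 29.0 CPM (4 months). In parental MIS-positive cells FST had 12.4 CPM.

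Markers of other cells were low beside CYR61, but not beside every gene followed here. At 6 h the leukocyte markers summed to 35.7 CPM, below CYR61, TGFBI, CTGF and AMOTL2 and above the other genes. At 48 h the fibroblast markers summed to 13.7 CPM, near SMAD7 (13.9 CPM), TGFB2 (14.3 CPM) and INHBA (16.5 CPM). The fibroblast sum was above only ANKRD1 there. Endothelial and erythrocyte markers stayed under 1 CPM in sum, and lung epithelial markers reached at most 5.80 CPM, at 2 months. Of 9 fibroblast markers 3 to 8 were detected, at 2.40 to 13.7 CPM in sum, the highest at 48 h, where COL1A1 had 11.7 CPM, and DCN was at 0 at 6 h and 4 months. The 48 h library held 37 cells with at least 5 UMIs of fibroblast markers and 9 cells with at least 5 of leukocyte markers, which together carried 9.31% of its INHBA, 4.30% of its SMAD7 and at most 2.77% of the UMIs of the other 8 genes. Without such cells in any library the number of genes called was the same in each of the 7 comparisons. The host was mouse, while the counts were made on the human genome. Neither these markers nor this removal can therefore measure mouse cells in the libraries. Of 9 leukocyte markers 4 to 9 were detected, at 1.87 to 35.7 CPM, the highest at 6 h from LYZ and CD68. Fewer expressing cells and less RNA per cell cannot be told apart in a summed level.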

How the data were processed

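Counts were taken as deposited. Per the labels, the authors made them with Cell Ranger 3 on GRCh38 (3.0.2 in the file headers), from Chromium 3′ libraries, as raw UMI counts per gene and cell barcode without normalization. The quality filter of the study was applied, doublets were kept, and UMIs were summed per library and cell class and divided by the total (CPM). Library totals ranged from 34630469 to 206526092 UMIs. Ratios have exact conditional binomial intervals and shares Clopper-Pearson intervals at 95%; a count of 0 allows up to 3 counts. Thinning used seed 1. The computation ran in Python 3.11.15 with numpy 2.4.6, scipy 1.17.1 and pandas 2.3.3, figures in matplotlib 3.10.9, and was tested on simulated data.

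The 10 genes, the lists and the comparisons were chosen with earlier results of these data known. Named are the 10 genes, up to 4 called genes of the largest ratio per list and comparison, the 5 most alike profiles of the 3 most variable genes and the 3 best correlated genes across cells for genes with a UMI in at least 20% of the cells (others with a UMI in at least 10%); other genes named were chosen after their values were seen, and some genes that this rule names are not reported here. The alternatives tried are given in the closing section. Gene positions are those of GENCODE 44. Promoters are from RefSeq. CTGF, TGFB1, TGFB2 and INHBA overlap a gene on the opposite strand, and strand use in the counting is not given in the sources used here.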

Additional observations from a re-analysis of the deposited data

How the results depend on the processing

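No paired analysis was possible because each timepoint has 1 library, and no library could be left out. The 39 calls of the 10 genes were each recomputed under those of 16 alternatives that applied to the comparison, of which 4 were chosen after seeing the data (MIS-positive cells only, no cells with other cells' markers, without the cell with the most UMIs, and the cells low in immediate early genes). In 561 such results the gene was called again in 539, in either direction, and not in 22. Of the alternatives, adding 0.1 CPM instead of 1 CPM and a minimum of 1 CPM instead of 5 CPM cannot remove a call. The 39 calls under each of them were kept by construction. The 539 include AMOTL2 at 6 h against parental in MIS-positive cells, called lower instead of higher in the cells low in immediate early genes.

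The comparison most open to choice was 48 h against 6 h with 2 genes called. It had 0 with 5 CPM added, 1 with scaling by the median of ratios, 1 with scaling without mitochondrial and ribosomal protein genes, 1 without the cell with the most UMIs, and 9 in the cells low in immediate early genes. No share of all genes called was computed for the cells low in immediate early genes. In MIS-positive cells, 6 h against parental had 8 genes called and 4 in the cells low in immediate early genes, of which 1 was higher and 3 lower. There the log2 ratio was -0.53 for CYR61, -0.83 for ANKRD1, -1.41 for AMOTL2, -0.041 for TGFB2, -0.60 for INHBA and -1.39 for SMAD7, the reverse of all MIS-positive cells, and the cause was not tested. These were the only reversals. Scaling by the median of ratios removed a median log2 ratio of -0.29 at 6 h against parental, which raised the ratios of the 10 genes, and the lower call of TGFB1 (log2 ratio -1.18) was lost at -0.90. All genes tested then split into 22.5% higher and 21.0% lower at 6 h against parental, 17.1% and 12.7% in parental MIS-positive against MIS-negative cells, 2.07% and 1.93% at 48 h against 6 h, 5.15% and 5.59% between the late timepoints, and 11.1% and 9.72% in MIS-positive cells of the 4 months library against parental.

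All 50 shares of cells were lower than their full-depth values after thinning and with a minimum of 2 UMIs. Fewer UMIs or a stricter minimum bring such a fall by themselves. Without the quality filter 39 of 50 moved outside their counting interval. With 1 library a timepoint, depth sets the precision of these cells only, and ANKRD1, INHBA, TGFB2 and SMAD7 rest on few UMIs in some libraries.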
